A study of Mus musculus with 4 samples.

Results

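Ebf1, Ebf2, Ebf3, Twist1, Twist2, Prrx1, Prrx2, Zeb1, Zeb2 and Tbx15 are transcription factors of connective tissue precursors, and their transcripts were counted here in single mesenchymal cells of the mouse mammary rudiment. These 10 genes, of 32932 listed in the count tables, were chosen by name as members of known mesenchymal factor families, not by their values. Earlier results of these data were, however, known when they were chosen. Mesenchymal cells were barcodes with at least 5000 UMIs (unique molecular identifiers, 1 for each captured transcript), at most 6% of UMIs from mitochondrial genes, and at least 10 UMIs of the collagens Col1a1, Col1a2 and Col3a1 that also exceeded 2 times the UMIs of Epcam, Krt8, Krt18, Krt5 and Krt14. The mirrored rule gave epithelial cells, the background against which the genes were read. It did not separate mammary from skin epithelium, whereas the study took out contaminating skin cells before its own epithelial analysis. The rule found 704 mesenchymal and 898 epithelial cells of 1630 cells past the UMI and mitochondrial limits, and 28 cells met neither rule.

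All samples were wild-type female mice of the C57B6 strain, in the study's methods C57 B6/N, with no transgene, deletion or treatment. Mammary rudiments of several embryos and dams were pooled into 1 single-cell library at each of embryonic days E13.5, E14.5 and E15.5 and at birth (P0), each stage in its own dissection session, after sorting that removed cells carrying CD45, CD31 or Ter119. The P0 tissue alone was digested with more collagenase and less hyaluronidase and had its red blood cells lysed. A difference between stages therefore cannot be told apart from one between libraries or sessions. With 1 library for each stage no test was possible, and all intervals below are exact 95% intervals that cover counting error only.

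Ebf proteins are helix-loop-helix factors of the COE family, known from B cell, neural and adipocyte precursors, and Ebf2 is known for its part in commitment to brown fat. Twist1 and Twist2 are basic helix-loop-helix proteins that bind E-boxes together with E proteins such as Tcf4 and are held back by Id proteins, and both are needed for normal dermis and skull development. Prrx1 and Prrx2 are paired-related homeodomain proteins of limb bud and craniofacial mesenchyme, and Tbx15 is a T-box protein of dorsal dermis and limb. Zeb1 and Zeb2 are zinc finger and homeodomain repressors that bind E-boxes in epithelial genes such as Cdh1, and are known from epithelial to mesenchymal transition. In the embryonic mammary gland a dense mesenchyme lies around the epithelial bud, and a looser dermal mesenchyme lies further out.

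The sequences before the start sites of Ebf1, Ebf3, Twist1 and Twist2 are shown because the Ebf and Twist genes gave the clearest opposite patterns below. They come from RefSeq on GRCm38.p6, 250 bases each, written 5′ to 3′ on the strand of the gene, with an E-box (CANNTG) in capitals. Ebf1 is given from chr11:44619978-44620227 on the plus strand, a window before an inner start site in an intron of the gene. The bases after this start matched 0 annotated Ebf1 transcripts. Those after the other Ebf1 window, chr11:44617850-44618099, matched 3, and that window, not printed, holds no E-box. Ebf3 is given from chr7:137314446-137314695 on the minus strand and Twist1 from chr12:33957421-33957670 on the plus strand, both outside annotated exons. Twist2 is given from chr1:91801211-91801460 on the plus strand, which lies in an exon of the neighbouring transcript Gm29100.
Ebf1: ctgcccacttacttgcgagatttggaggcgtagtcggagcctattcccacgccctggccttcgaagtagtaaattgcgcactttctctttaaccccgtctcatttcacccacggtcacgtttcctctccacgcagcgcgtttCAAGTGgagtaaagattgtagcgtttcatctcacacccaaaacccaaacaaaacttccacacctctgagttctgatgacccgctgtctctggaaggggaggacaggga
Ebf3: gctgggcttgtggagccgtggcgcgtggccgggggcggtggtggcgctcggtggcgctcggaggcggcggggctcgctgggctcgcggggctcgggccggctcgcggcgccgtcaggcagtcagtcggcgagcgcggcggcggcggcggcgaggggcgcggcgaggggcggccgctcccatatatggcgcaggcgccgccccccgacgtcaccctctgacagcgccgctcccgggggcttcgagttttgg
Twist1: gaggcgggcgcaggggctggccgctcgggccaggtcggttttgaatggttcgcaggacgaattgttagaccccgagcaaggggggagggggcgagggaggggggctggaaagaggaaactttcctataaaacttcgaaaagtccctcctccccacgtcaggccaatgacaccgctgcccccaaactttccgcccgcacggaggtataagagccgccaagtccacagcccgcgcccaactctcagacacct
Twist2: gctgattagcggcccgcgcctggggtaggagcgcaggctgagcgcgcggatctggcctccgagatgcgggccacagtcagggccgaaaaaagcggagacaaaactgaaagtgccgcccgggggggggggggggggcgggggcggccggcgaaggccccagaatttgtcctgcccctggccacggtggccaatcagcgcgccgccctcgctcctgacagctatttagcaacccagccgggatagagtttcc
RefSeq windows were matched for 7 of the 10 genes and gave 11 windows in all. An E-box on either strand, CANNTG, stood in 66.2% of 32841 windows of the same length, and in 1 of these 11, the Ebf1 window printed above, where it reads CAAGTG. The narrower Zeb-type E-box CACCTG, which is one form of CANNTG, stood in 17.2% of all windows, the Ebf-type palindrome (TCCC and GGGA with 2 bases between) in 0.780% and the homeobox core TAATTA in 4.84%. Of these 3 motifs only TAATTA was found in a window of these genes, once, before Prrx1. A match or its absence describes these letters in these windows and says nothing of binding.

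Depth differed between the libraries. The median mesenchymal cell had 16573 UMIs in the E13.5 library (129 cells), 24268 in E14.5 (31 cells), 24324 in E15.5 (279 cells) and 8778 in P0 (265 cells). Scrublet called 9 of the 31 E14.5 mesenchymal cells and 3 of the P0 ones doublets, which were kept. Shares of cells are given after each cell was thinned at random to 5000 UMIs. The E15.5 table listed 31053 genes and carried a Cell Ranger 3.1.0 header, whereas the other 3 listed 32285 genes under version 6.0.0; the part of this difference in any E15.5 value was not tested. The mesenchyme carried all 6 of its markers at every stage, among them the collagens that the rule asks for. The leukocyte gene Ptprc was at 0 at every stage, and endothelial markers summed to 12.8 to 36.2 UMIs per 1000000 (CPM). Epithelial markers summed to 43.0 to 344 CPM in mesenchyme against 3444 to 14410 CPM in epithelium. These markers were Cdh1 and the epithelial genes of the rule, so the rule partly fixed their sums. Blood markers, haemoglobin genes, reached 3369.9 CPM in P0 mesenchyme against at most 0.704 CPM before birth.

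All 10 genes were far above the epithelium wherever they were counted often enough. At E13.5 each was 4-fold or more higher in mesenchyme, a level difference met by 10.5% of all genes with 20 or more UMIs. The count was also 10 of 10 at E14.5 (7.99% of all genes) and at P0 (10.8%). At E15.5 it was 8 of the 8 with 20 or more UMIs (10.1%), with Ebf2 and Ebf3 too rare to be read. In the epithelium no gene exceeded 4.71 CPM at any stage, and the median gene stood at 0.316% to 0.539% of its mesenchymal level. The 3 collagens stood at 0.30% to 0.867% in the same epithelial cells. The rule for epithelial cells itself limits collagen UMIs, so this range is partly fixed by the rule and is no independent yardstick. Single genes lay both below and above that range, some of them at 0. Prrx2 was above the collagens at every stage, with epithelial levels of 6.54%, 6.47%, 1.70% and 2.09% of the mesenchymal ones from E13.5 to P0, counted in 6, 4, 25 and 1 epithelial cells. Ebf1 stood at 3.93% at E15.5, where 1 epithelial cell held 21 of the 29 epithelial UMIs. Ebf3 stood at 2.44% at E14.5 and 2.67% at P0, Tbx15 at 2.13% at E15.5 and Zeb1 at 1.80% at P0, and the 27.4% of Ebf3 at E15.5 was set against a mesenchymal level of only 1.55 CPM.

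**Figure D1:**
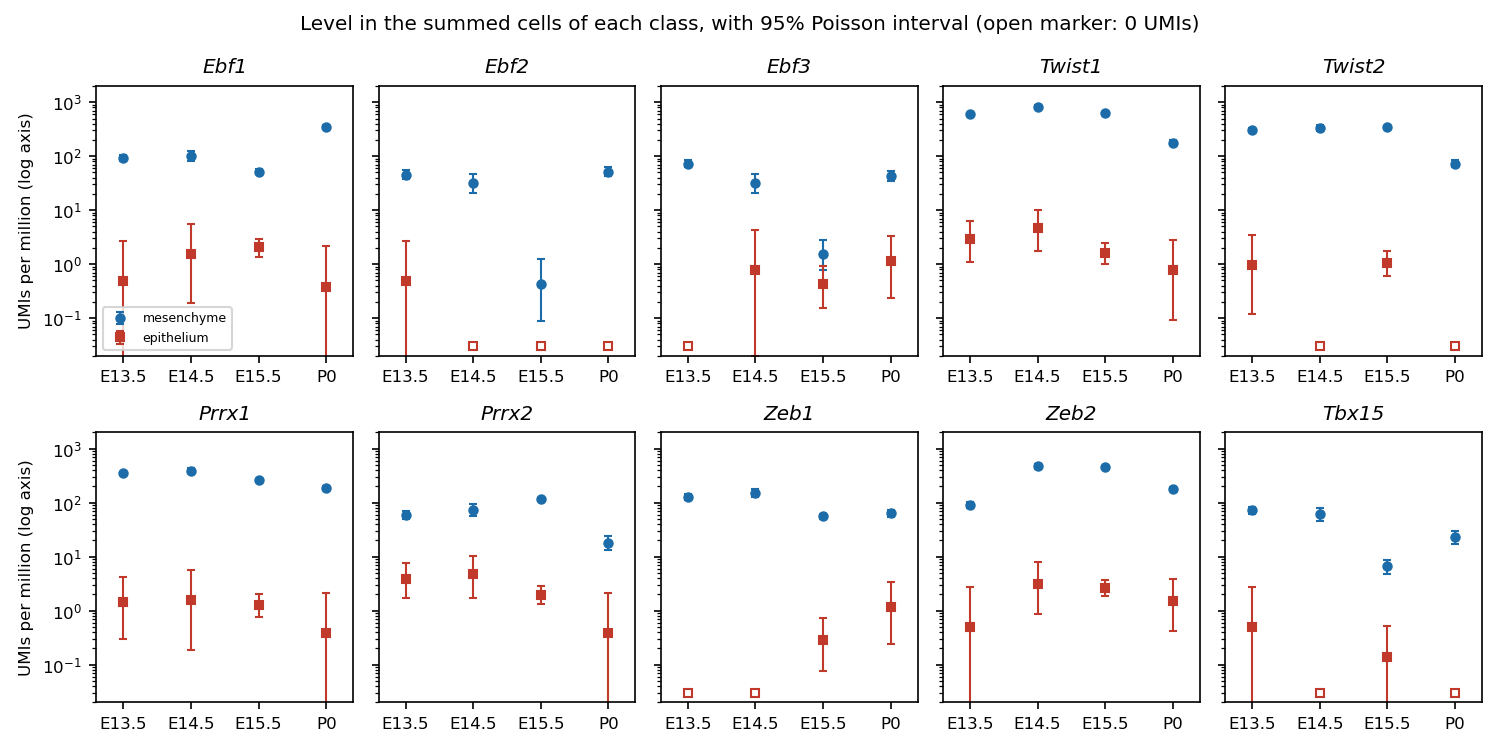
Summed levels of the 10 genes in UMIs per 1000000 (log axis) in mesenchymal cells at the 4 stages and in epithelial cells, with exact 95% Poisson intervals and 1 library per stage. Ebf2, Ebf3 and Tbx15 dip at E15.5, Ebf1 is highest at P0, and Twist1, Twist2 and Prrx2 are lowest at P0.

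The 3 Ebf genes did not share one course over the stages. Ebf1 stood at 93.2 CPM in E13.5 cells (95% interval 81.3 to 106), 103 in E14.5 cells (82.1 to 127), 52.1 in E15.5 cells (46.9 to 57.7) and 355 in P0 cells (332 to 379). E13.5 and E14.5 overlapped, E15.5 lay below both and P0 above all. These levels are sums over the clusters described below. At E15.5, 1 cluster with 26.5% of the cells had 207 CPM of Ebf1 (185 to 231), and the others had at most 13.2 CPM. At E13.5 the cluster with 52.7% of the cells had 138 CPM (118 to 161), and the others had 34.4 and 54.6 CPM. After thinning, Ebf1 was detected in 23.3% of cells at E13.5, 14.7% at E15.5 and 72.1% at P0.

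Ebf2 had 45.3 CPM in E13.5 cells (106 UMIs), 32.2 in E14.5 cells (27 UMIs), 0.422 in E15.5 cells (3 UMIs in 279 cells) and 52.1 in P0 cells (128 UMIs). Ebf3 had 72.7 CPM in E13.5 cells (170 UMIs), 32.2 in E14.5 cells (27 UMIs), 1.55 in E15.5 cells (11 UMIs, each in a different cell) and 43.1 in P0 cells (106 UMIs). Both were thus nearly missing from E15.5 mesenchyme of this depth and present on either side of it. At E14.5, however, the Ebf2 UMIs lay in only 4 cells, 16 of them in 1 cell. The E15.5 level of Ebf2 was 0.00931 of that at E13.5 (0.00189 to 0.0280) and that of Ebf3 was 0.0213 (0.0104 to 0.0391). From E15.5 to P0 the ratio was 123 for Ebf2 (41.3 to 606) and 27.9 for Ebf3 (15.0 to 57.5). Ebf2 at P0 and E13.5 did not differ beyond counting error (ratio 1.15, 0.881 to 1.501).

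Tbx15 followed the same dip at a smaller size. Its level was 71.9 CPM in E13.5 cells (61.4 to 83.6), 62.1 in E14.5 cells (46.3 to 81.4), 6.61 in E15.5 cells (4.86 to 8.80) and 22.8 in P0 cells (17.2 to 29.6). It was detected in 25.6%, 3.23% and 10.2% of thinned E13.5, E15.5 and P0 cells.

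The Twist1 and Twist2 proteins share nearly the same DNA binding domain. Summed over all mesenchymal cells, both genes stayed within 1.36-fold of their E13.5 levels in the embryo and were lower at birth. Within the clusters described below, Twist2 was not steady. It had 688 CPM in sub-epithelial mesenchyme-like cells at E13.5 and 346 CPM at E15.5. In the unnamed E13.5 cells it had 93.3 CPM, and in the dermal mesenchyme-like E15.5 cells 293 CPM. Twist1 gave 602 CPM in E13.5 cells (571 to 634), 819 in E14.5 cells (758 to 882), 630 in E15.5 cells (612 to 649) and 179 in P0 cells (163 to 197). Twist2 gave 303 CPM in E13.5 cells (281 to 326), 338 in E14.5 cells (299 to 379), 344 in E15.5 cells (331 to 358) and 73.3 in P0 cells (62.9 to 84.8). Twist1 was the most abundant of the 10 in counts at each of the 3 embryonic stages, in 82.9% of thinned cells at E13.5 and 87.1% at E15.5. At P0, where it was in 51.7%, Ebf1 took that place. Counts were not scaled for transcript length because the 3′ chemistry counts 1 end of each transcript. Ratios are taken within a gene, and the ranking between genes is one of UMI counts only.

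Prrx1 and Prrx2 parted at E15.5. Prrx1 varied least of the 10 between its highest and lowest stage, with 352 CPM in E13.5 cells (328 to 377), 391 in E14.5 cells (350 to 436), 265 in E15.5 cells (253 to 277) and 189 in P0 cells (172 to 207). Prrx2 had 59.9 CPM in E13.5 cells (50.4 to 70.7), 72.8 in E14.5 cells (55.7 to 93.5), 116 in E15.5 cells (108 to 124) and 18.3 in P0 cells (13.4 to 24.5). Prrx2 was thus highest at E15.5 and lowest at P0, in 41.6% and 7.17% of thinned cells.

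The Zeb genes also moved apart. Zeb1 had 129 CPM in E13.5 cells (115 to 144), 154 in E14.5 cells (129 to 183), 56.1 in E15.5 cells (50.8 to 61.9) and 63.9 in P0 cells (54.3 to 74.7), with E15.5 and P0 overlapping. Zeb2 had 91.95 CPM in E13.5 cells (80.1 to 105), 473 in E14.5 cells (427 to 521), 466 in E15.5 cells (450 to 482) and 179 in P0 cells (162 to 196). Zeb2 was higher at E14.5 and E15.5 than at E13.5, by 5.14-fold (4.34 to 6.10) and 5.07-fold (4.41 to 5.84). A single cell held 96 of the 396 Zeb2 UMIs at E14.5, and ratios with E14.5 were not recomputed without the called doublets. It was detected in 22.5% of thinned cells at E13.5 and 80.6% at E15.5.

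These stage ratios were read against all genes with 20 or more UMIs. From E13.5 to E15.5, 1 of the 10 genes was 2-fold or more higher, Zeb2, against 8% of all genes, and 4 were 2-fold or more lower, Ebf2, Ebf3, Tbx15 and Zeb1, against 13.7%. From E15.5 to P0, 4 were higher, Ebf1, Ebf2, Ebf3 and Tbx15, against 14.3%, and 4 were lower, Twist1, Twist2, Prrx2 and Zeb2, against 28.2%. From E13.5 to P0, 1 was higher, Ebf1 at 3.81-fold (3.28 to 4.44), against 14.2%, and 5 were lower, Twist1, Twist2, Prrx2, Tbx15 and Zeb1, against 35.7%. The median over all genes was itself shifted, to 0.879 for E15.5 over E13.5, 0.752 for P0 over E15.5 and 0.666 for P0 over E13.5. Relative to that median, 2 were higher and 4 lower at E15.5 than at E13.5, where 9.98% and 10.2% of all genes were. On the same scale 4 were higher and 3 lower at P0 than at E15.5 (all genes 20.4% and 18.2%), and 2 higher and 4 lower at P0 than at E13.5 (21.9% and 19.7%). Prrx2 at E15.5 (relative ratio 2.21), Zeb2 at P0 over E15.5 (0.510), Zeb2 at P0 over E13.5 (2.92) and Zeb1 at P0 over E13.5 (0.745) were the values that crossed the 2-fold line.

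The dip of Ebf2, Ebf3 and Tbx15 held for E15.5 barcodes of 5000 or more UMIs, and barcodes below that minimum, examined after these values were seen, gave another picture. The E15.5 library held 375 barcodes of 500 to under 2000 UMIs, median 687, that passed the collagen and mitochondrial limits, compared with 7, 14 and 79 in the E13.5, E14.5 and P0 libraries, and 6 in its own range of 2000 to under 5000 UMIs. The 10-UMI collagen limit asks for a larger share of collagen in so shallow a barcode. In these 375 barcodes Ebf2 had 26 UMIs, 92.6 CPM, against 0.422 CPM in the 279 deeper cells, a ratio of 219 (67.2 to 1132). Of all 33 Ebf2 UMIs in the E15.5 library, 30 lay in barcodes under 5000 UMIs.

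Ebf3 stood at 35.6 against 1.55 CPM in shallow and deep barcodes (ratio 23.0, 8.76 to 59.6), and Tbx15 at 89.0 against 6.61 CPM (13.46, 7.94 to 22.3). Ebf1 stood at 285 against 52.1 CPM (5.47, 4.24 to 6.98) and Prrx1 at 801 against 265 CPM (3.02, 2.62 to 3.47). Twist2 went the other way, with 21.4 against 344 CPM (0.0621, 0.0228 to 0.135), as did Twist1 (0.480, 0.383 to 0.595) and Zeb2 (0.459, 0.349 to 0.592). The shallow barcodes also differed in other genes. Pi16, a marker of adventitial fibroblasts, had 2310.4 against 1.55 CPM, the lipase gene Lpl 1449 against 3.38 CPM, and the cell cycle gene Top2a 14.2 against 360 CPM. Fabp4, an adipocyte gene at 364 CPM in P0 mesenchyme, had 0 UMIs in both. What set these barcodes apart was not tested. The E15.5 levels above and below hold only for cells of 5000 or more UMIs, except where the shallow barcodes are named.

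**Figure D2:**
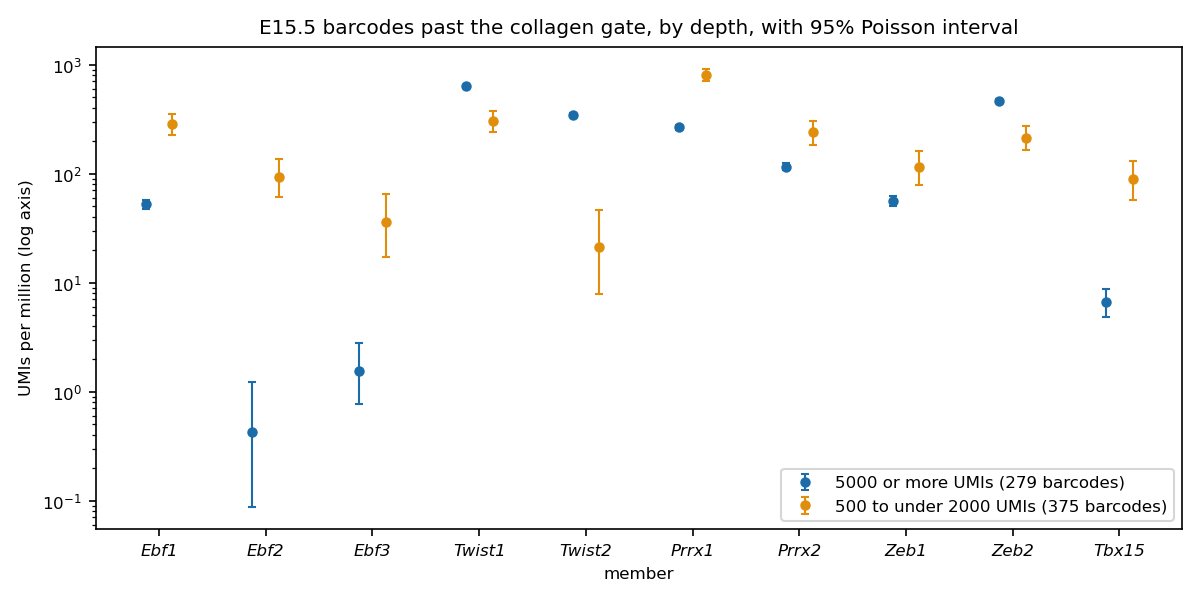
Levels of the 10 genes in UMIs per 1000000 (log axis) in E15.5 barcodes past the collagen rule, split into 279 of 5000 or more UMIs and 375 of 500 to under 2000 UMIs, with exact 95% Poisson intervals. Ebf2, Ebf3 and Tbx15 are higher in the shallow barcodes and Twist2 is lower.

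Known partners of these factors gave a context for the courses. Of 13 partner genes, 1 was 2-fold or more higher and 2 lower at E15.5 than at E13.5 (all genes 8% and 13.7%). At P0 against E15.5, 1 was higher and 7 lower (all genes 14.3% and 28.2%). The median log2 ratio of the list was -0.16 in the first case, against -0.19 for all genes, and -1.02 in the second, against -0.41. Tcf4, an E protein that pairs with Twist, had 1119.7 CPM in E13.5 cells, 1183 in E15.5 cells and 183 in P0 cells, so that it too was lowest at birth. Id4, an inhibitor of such pairs, stood at 0.211 of its E15.5 level at P0 (0.156 to 0.281), whereas Id3 stood at 3.13 (2.91 to 3.38). Tbx18, the T-box paralogue that acts with Tbx15, had 45.3 CPM in E13.5 cells, 10.8 in E15.5 cells and 15.1 in P0 cells, and in E15.5 cells it was 0.239 of E13.5 (0.176 to 0.324). Zfp423, a zinc finger partner of Ebf proteins, had 26.5, 16.5 and 15.1 CPM at the same stages.

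Among genes of the Snail and epithelial programme, Snai2 was lower at birth like the Twist genes, with 68.5 CPM at E15.5 and 8.14 at P0 (ratio 0.119, 0.0719 to 0.185), and Snai1 stood at 2.18 (1.59 to 2.96). Of 9 genes in that list, 5 were measured between E15.5 and P0. Of these, 3 were higher and 2 lower, against 14.3% and 28.2% of all genes (median log2 ratio 1.12, all genes -0.41). Cdh1 and Epcam, at 2.46 (1.51 to 3.98) and 4.05 (3.29 to 4.99), were among the higher, and epithelial markers overall summed to 344 CPM in P0 mesenchyme against 86.8 at E15.5. Their part in these values was not tested.

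Other dermal and limb bud factors were 3 higher and 9 lower of 23 measured at E15.5 than at E13.5 (all genes 8% and 13.7%). Their median log2 ratio was -0.87, against -0.19 for all genes. Runx1, a runt factor, was highest at 3.91 (3.23 to 4.77) and Msx2, a homeobox repressor, followed at 3.26 (1.70 to 7.003). Meox2, a somite homeobox gene, was lowest at 0.120 (0.0619 to 0.222), and En1, a homeobox gene of dermal fibroblast precursors, was next at 0.133 (0.0799 to 0.214). Osr1, a zinc finger factor of connective tissue precursors, had 163 CPM in E13.5 cells, 156 in E14.5 cells, 24.1 in E15.5 cells and 24.0 in P0 cells, so that it was lower from E15.5 on and, unlike Tbx15, no higher at birth (P0 over E15.5 0.998, 0.729 to 1.35). From E15.5 to P0, 4 of 23 were higher and 9 lower (all genes 14.3% and 28.2%). The cartilage factor Sox9 stood at 13.4 (11.2 to 16.1), Klf4 at 7.77 (7.18 to 8.42) and the Wnt effector Lef1 at 0.0122 (0.00250 to 0.0357). Msx2 had 0 UMIs at P0, a ratio of at most 0.0876 against a floor of 3 UMIs.

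Adipogenic genes, like Ebf1, were higher at birth. Of 11 listed, 9 were measured between E15.5 and P0. Of these, 8 were 2-fold or more higher and none lower, against 14.3% and 28.2% of all genes (median log2 ratio 2.35, all genes -0.41). Lpl was 316-fold higher (212 to 495), Fabp4 at least 862-fold against a floor of 3 UMIs, and Pparg, the main adipocyte nuclear receptor, 7.09-fold (4.13 to 12.6). In the 375 shallow E15.5 barcodes, outside this comparison, Lpl stood at 1449 CPM, above its 1069 CPM in P0 cells, while Fabp4 had 0 UMIs. Between E13.5 and E15.5 only 1 of 7 was higher, Cebpb, and 1 lower, Lpl (all genes 8% and 13.7%). Of 11 matrix and adhesion genes, 5 were higher and 3 lower at P0 than at E15.5 (all genes 14.3% and 28.2%). The median log2 ratio was 0.64, against -0.41 for all genes. The higher ones included Col1a1, Col1a2 and Col3a1, the collagens by which the mesenchymal cells were chosen.

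Within each stage the mesenchyme was clustered without the 10 genes. A name needed at least 3 markers of a class, each detected in 25% or more of the cells. At least 2 of these had to be raised over the other cells of the stage (log2 ratio above 0.5). Clusters whose leading genes, read by hand, belonged to another tissue stayed unnamed. At E13.5, 35 cells were sub-epithelial mesenchyme-like, 26 were proliferative-like and 68 stayed unnamed. The unnamed cells were led by Ebf2 itself, Itm2a, Cthrc1 and Plac8, with the pericyte marker Kcnj8 among the leading genes. They had 2 of 4 dermal markers detected, both of them raised, and no sub-epithelial marker raised. At E14.5 the 31 cells formed 1 cluster. At E15.5, 81 cells were sub-epithelial mesenchyme-like, 74 dermal mesenchyme-like and 66 proliferative-like, and 58 were led by Dqx1, Gal and Epcam. At P0, 83 cells were Pi16 fibroblast-like and 71 Col15a1 fibroblast-like, the second led in order by Cxcl5, Car3, Timp1, Pakap and Fabp4. The immune genes Gbp2, Csf2 and Iigp1 were also among its leading genes. Another 83 cells were led by haemoglobin genes and 28 by skeletal muscle genes. The markers alone would have named the haemoglobin-led cells Col15a1 fibroblast-like (5 of 7 detected, 2 raised) and the muscle-led cells Eln fibroblast-like (3 of 3 detected, 2 raised). Of the 3 Eln fibroblast markers the haemoglobin-led cells had 2 detected, fewer than a name needs. Both were raised, and Eln was among the leading genes of these cells. The mean log2 ratio there was 0.96 for the Eln fibroblast markers and 0.047 for the Col15a1 fibroblast markers. Because a cluster is made from the same cells, its levels are given as a description.

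The E13.5 clusters divided the Ebf and Twist genes. In the 35 sub-epithelial mesenchyme-like cells Ebf2 and Ebf3 had 0 UMIs, against 99 and 144 UMIs in the 68 unnamed cells. The upper 95% limits of these ratios were 0.0878 and 0.0600. Ebf1 stood at 34.4 against 138 CPM (ratio 0.249, 0.144 to 0.406). Twist2 stood at 688 against 93.3 CPM (7.37, 5.95 to 9.19), Zeb2 at 197 against 45.4 CPM (4.33, 3.09 to 6.12), Twist1 at 929 against 400 CPM (2.32, 2.04 to 2.64) and Prrx2 at 95.5 against 45.4 CPM (2.10, 1.40 to 3.14). In all, 4 genes were 2-fold or more higher in the sub-epithelial mesenchyme-like cells and 3 lower, where 5.26% and 7.83% of all genes were. Prrx1 (ratio 0.932, 0.775 to 1.12), Zeb1 (1.32, 0.999 to 1.75) and Tbx15 (1.28, 0.853 to 1.90) had intervals that held 1.

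**Figure D3:**
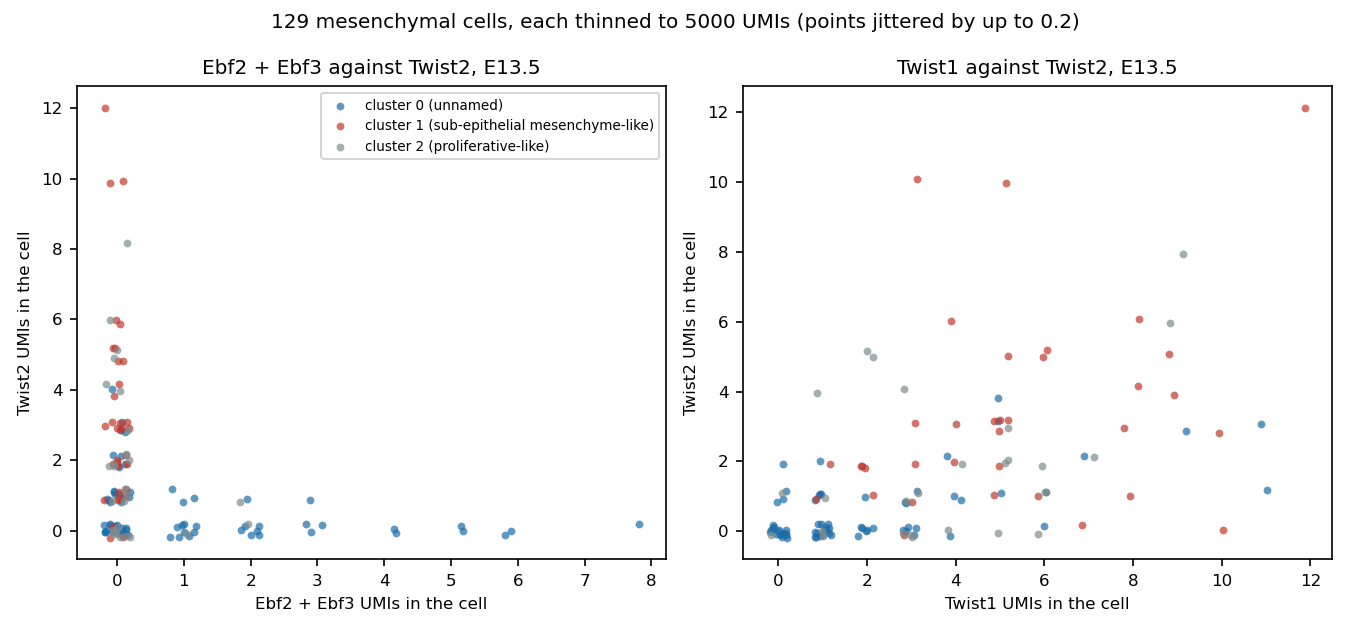
UMIs of Ebf and Twist genes in single E13.5 mesenchymal cells, coloured by cluster. The 35 sub-epithelial mesenchyme-like cells hold no Ebf2 or Ebf3 UMI, and their Twist2 level is 688 CPM against 93.3 CPM in the 68 unnamed cells.

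At E15.5 the division rested on Ebf1. Sub-epithelial mesenchyme-like cells had 7.67 CPM of Ebf1 (4.29 to 12.7) and dermal mesenchyme-like cells 207 CPM (185 to 231), a ratio of 0.0370 (0.0205 to 0.0620). Ebf1 was in 9.88% of the first cells and 68.9% of the second as deposited. Tbx15 followed, with 2 and 22 UMIs (0.0711, 0.00811 to 0.289), and Prrx2 was 2.11-fold higher in the sub-epithelial mesenchyme-like cells (1.68 to 2.66). That made 1 gene higher and 2 lower, against 8.6% and 8.39% of all genes, with 8 of the 10 counted often enough. At a clustering resolution of 0.4 in place of 0.8 no gene was 2-fold higher in the sub-epithelial mesenchyme-like cells, so the Prrx2 call was lost. Twist2, which separated the E13.5 clusters, stood at 346 against 293 CPM here (1.18, 1.05 to 1.33), and Zeb2 at 465 against 373 CPM (1.25, 1.12 to 1.39).

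At P0 the fibroblast clusters differed in Ebf3. Pi16 fibroblast-like cells had 77.3 CPM of Ebf3 (60.1 to 97.8) and Col15a1 fibroblast-like cells 11.1 CPM (4.48 to 22.9), a ratio of 6.94 (3.19 to 17.9). Ebf3 was the 1 gene of 10 that was 2-fold or more higher, and none was lower, against 13% and 10.4% of all genes. Ebf1 stood at 381 and 312 CPM in these clusters and at 377 and 308 CPM in the haemoglobin-led and muscle-led ones, so it varied little over the P0 mesenchyme. Twist1 was 1.77-fold higher in the Pi16 fibroblast-like cells (1.34 to 2.36) and Twist2 stood at 0.582 (0.402 to 0.838).

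**Figure D4:**
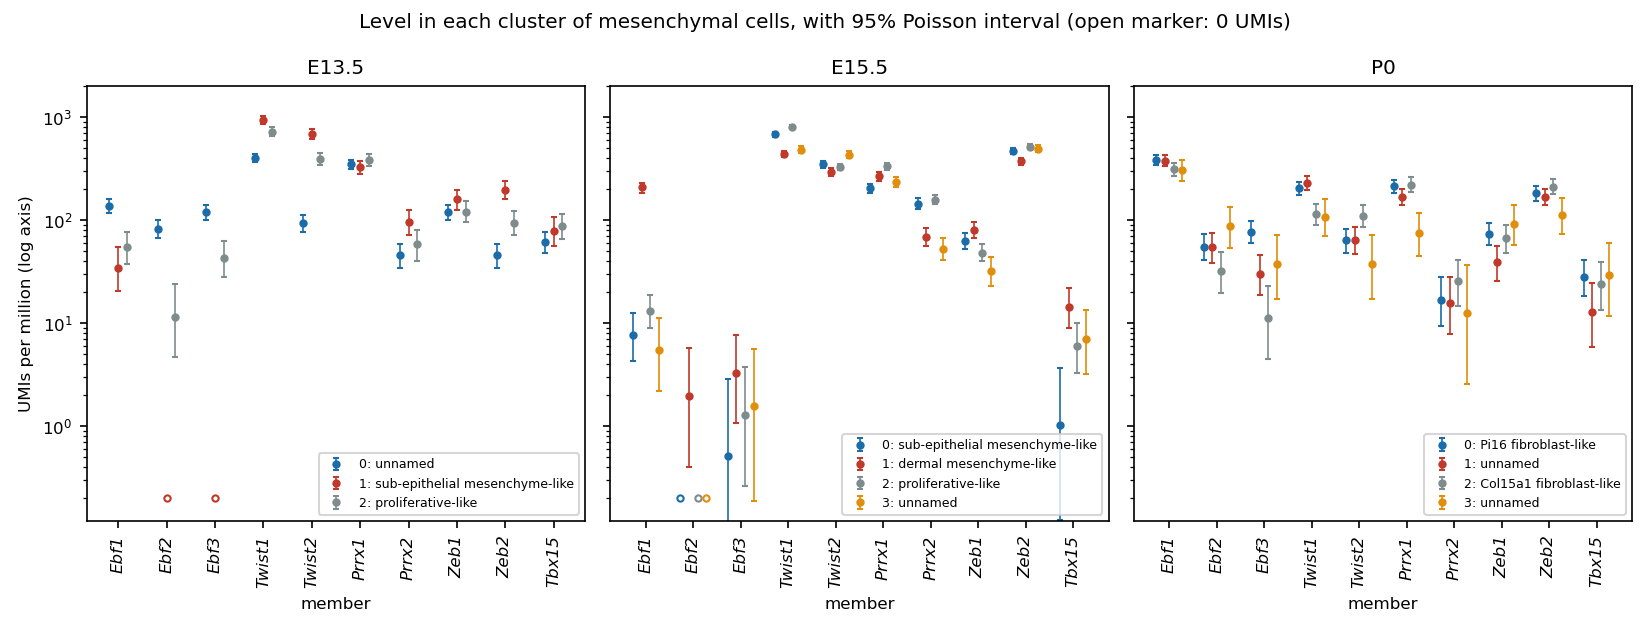
Levels of the 10 genes in UMIs per 1000000 by mesenchymal cluster at E13.5, E15.5 and P0, with exact 95% Poisson intervals, open markers for 0 UMIs and clusters named by markers or left unnamed. At E15.5 Ebf1 is at 207 CPM in the dermal mesenchyme-like cluster and at most 13.2 CPM in the other 3.

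Co-detection in single cells was read on cells thinned to 5000 UMIs, as the number of cells with both genes divided by the number expected if the shares were independent. Pairs were counted where both genes were in 5% to 95% of cells and at least 5 cells with both were expected. At E13.5, 6 of 40 such pairs had a ratio of 1.25 or more and 6 had 0.8 or less, where 11.5% and 15.6% of all gene pairs did. At E15.5 it was 2 and 0 of 21 pairs, against 12.1% and 14.9%, and at P0 6 and 4 of 40, against 12.6% and 15.4%. These counts lay near or below the background at every stage and are not read as a property of the 10 genes as a set. All 6 low pairs of E13.5 held Ebf2 or Ebf3. Because a share of few cells depends on the random thinning, the range over 20 draws is given with each pair.

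The Ebf2 and Ebf3 pair of E13.5, outside the 40 because under 5 cells were expected, was the furthest above independence. Ebf2 and Ebf3 were detected together in 12 cells where 3.77 were expected, a ratio of 3.19 (1.63 to 4.01 over draws), with Ebf3 in 66.7% of the 18 cells with Ebf2 (41.0 to 86.7) and 13.51% of the 111 without (7.77 to 21.3). Ebf1 with Ebf3 gave 1.75 (0.853 to 1.87) and Ebf1 with Ebf2 0.956 (0.632 to 1.65). Without thinning, 15 of 129 cells held all of Ebf1, Ebf2 and Ebf3, 13 held Ebf2 and Ebf3, 33 held Ebf1 alone and 44 held none, while 1 cell held Ebf2 alone. Ebf2 was thus rarely seen without Ebf3 at this stage.

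In thinned E13.5 cells Ebf2 and Ebf3 were seldom detected together with Twist2. Ebf1 with Twist2 lay nearer to independence at 14 cells where 17.0 were expected (ratio 0.825, 0.456 to 1.04 over draws). Ebf2 and Twist2 shared 2 cells where 10.2 were expected (0.196, 0 to 0.428), with Twist2 in 11.1% of cells with Ebf2 (1.38 to 34.7) and 64.0% of those without (54.3 to 72.9). Ebf3 and Twist2 shared 6 where 15.3 were expected (0.393, 0.139 to 0.518), with 22.2% (8.62 to 42.3) against 65.7% (55.6 to 74.8). In the Ebf2 and Ebf3 pairs the 2 intervals did not overlap and every draw lay under 1. Before thinning, Twist2 was detected in a larger share of the cells with Ebf2 or Ebf3. Among these a single cell held 1 Ebf2, 2 Ebf3 and 23 Twist2 UMIs, so the genes were not exclusive. Ebf3 with Zeb2 gave 0.330 in this draw (0.330 to 1.08). The highest pairs beside the Ebf pairs were Ebf2 with Zeb1 at 1.69 (0.929 to 1.69) and Twist2 with Zeb2 at 1.40 (1.27 to 1.58).

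**Figure D5:**
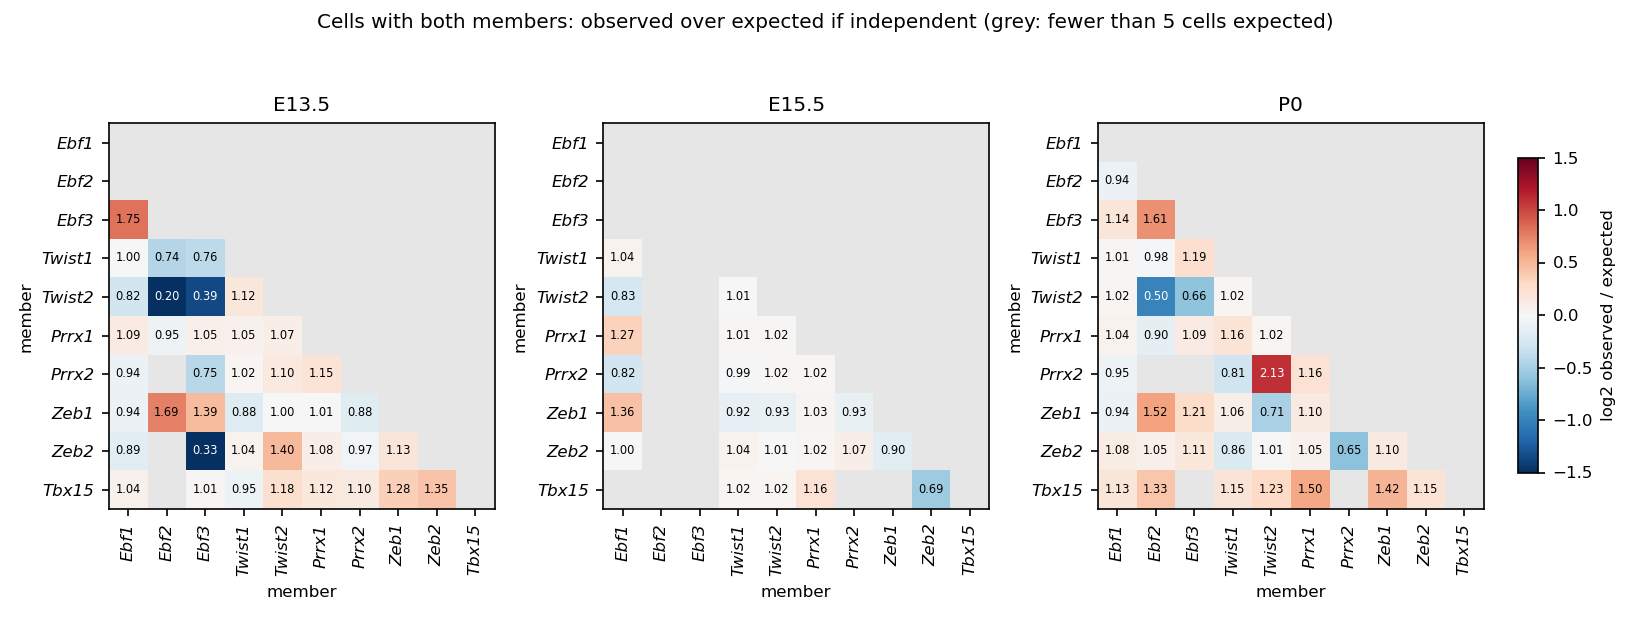
Ratio of observed to expected cells with both genes for each pair of the 10 genes in thinned mesenchyme, 1 panel for each of E13.5, E15.5 and P0. Pairs with under 5 cells expected are grey, and at E13.5 Twist2 stands at 0.20 with Ebf2 and 0.39 with Ebf3.

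Ratios within the other families ran from 0.897 to 1.16. A ratio has little room to rise where a gene is in most cells, as Twist1 was at E13.5 (82.9%). Twist1 with Twist2 gave 1.12 in E13.5 cells (1.08 to 1.24), 1.01 in E15.5 cells (0.978 to 1.03) and 1.02 in P0 cells (0.845 to 1.07). Every E13.5 draw of this pair lay above 1. Of 129 thinned E13.5 cells 68 held both Twist genes, 39 Twist1 alone, 5 Twist2 alone and 17 neither. Prrx1 with Prrx2 gave 1.15 (0.872 to 1.27), 1.02 (0.896 to 1.09) and 1.16 (0.893 to 1.34) at the same stages. Zeb1 with Zeb2 gave 1.13 (0.843 to 1.47), 0.897 (0.842 to 1.12) and 1.10 (0.917 to 1.23). Both Twist genes were in 187 of 279 thinned E15.5 cells.

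At E15.5 Ebf1 with Zeb1 gave 1.36 (1.07 to 1.85) and Ebf1 with Prrx1 1.27 (0.891 to 1.27), and the lowest readable pairs were Ebf1 with Prrx2 at 0.821 (0.687 to 1.26) and Ebf1 with Twist2 at 0.831 (0.697 to 0.999). Pairs with Ebf2, Ebf3 or Tbx15 rested on 1, 3 and 9 cells of those genes at this stage and are not read. At P0 Ebf2 with Ebf3 stood at 1.61 (1.04 to 1.84), Ebf2 with Zeb1 at 1.52 (1.04 to 1.86) and Ebf2 with Twist2 at 0.499 (0.419 to 0.848). These 3 ratios kept their side of 1 in all 20 draws. With a minimum of 3000 UMIs a cell in place of 5000, however, Ebf2 with Twist2 was at 1.32. Its interval, 0.557 to 2.45, covers counting error in 1 draw and is no range over draws. Twist2 with Prrx2 was the highest P0 pair at 2.13, with draws from 0.669 to 2.26. As deposited, 120 of the 265 P0 cells held Ebf1 alone of the Ebf genes, 41 Ebf1 and Ebf2, 36 Ebf1 and Ebf3, 28 all of them and 24 none. Cells held a median of 6 of the 10 genes at each embryonic stage and 5 at P0 before thinning. After thinning the medians were 4, 5, 4 and 3 from E13.5 to P0.

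The genes most like each factor were sought over the 279 E15.5 cells among 5373 genes, by Pearson's r of log counts after thinning, as a description over cells of 1 library. Ebf1 was most like Cdkn1c (r = 0.524), Plagl1 (0.503) and Nrk (0.485), of which Cdkn1c, a cell cycle inhibitor, and Plagl1, a zinc finger factor, are both imprinted genes and among the dermal markers used for naming. Zeb2 was most like Cyr61 (0.308), Tcf4 (0.303) and Runx1t1 (0.301). The others reached no r of 0.3 at this stage or were in too few cells. In a look at the 129 E13.5 cells added after the data were seen, Twist2 was most like Apcdd1 (0.596), an inhibitor of Wnt signalling, Twist1 (0.560) and the homeobox gene Irx1 (0.546). Ebf3 was most like Ebf2 (0.450) and also reached 0.366 with Sox9, and Zeb2 was most like Casz1 (0.460), Nrgn (0.460) and Lix1 (0.405). The leading genes of the other 7 factors at E13.5 had r of 0.321 to 0.560.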

How the data were processed

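The deposited values are UMI counts per gene and barcode that the authors made with Cell Ranger, 1 table per stage, without normalization. The processing notes give version 6.0.0 for every table, whereas the header of the E15.5 table gives 3.1.0. The 10 genes and the gene lists were chosen with earlier results of these data known.

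Cells were selected by the rules in the report. Named genes were found by symbol, and the all-gene backgrounds were matched between stages by Ensembl identifier. UMIs were summed over the cells of a class and given per 1000000 (CPM) with exact 95% Poisson intervals, and ratios with exact conditional binomial intervals. Only genes with 20 or more UMIs over the compared classes entered the backgrounds. The fold limits were 4 between tissues and 2 between stages or clusters, and a floor of 3 counts stood in for 0. Shares and co-detection used cells thinned to 5000 UMIs with seed 1, and ranges covered 20 draws. Each stage was clustered in Seurat 5.3.0 with sctransform 0.4.2 on 2000 variable genes without the 10 genes, 15 components and resolution 0.8. For each list the counts past the fold and the 2 highest and 2 lowest genes were the rule for naming, of which the clearest are given, and likeness at E15.5 was printed from r of 0.3. At E13.5 the like genes of 3 factors, chosen after their values were seen, are named, except for a gene that is not reported here. Doublets were scored with Scrublet in scanpy 1.11.5. The ratio step was tested on simulated counts. Of 1466 to 2642 barcodes at P0 and E15.5 and 807 to 981 at E14.5 and E13.5, those under 5000 UMIs were left out except where named. Alternatives are given in the closing section.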

Additional observations from a re-analysis of the deposited data

Results flagged for a closer look

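Cells that met neither the mesenchymal nor the epithelial rule were used in no comparison, yet held the 10 genes above the epithelial level. Summed over the 10 genes, 8 such cells at E13.5 had 919 CPM (95% Poisson interval 759 to 1102) against 11.3 in epithelium and 1821 in mesenchyme. At E15.5, 11 such cells had 474 CPM (398 to 560) against 11.5 and 1938, and at P0 9 cells had 177 CPM (84.8 to 325) against 5.75 and 1175. What these 28 cells are was not tested.

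E15.5 barcodes of 500 to under 2000 UMIs past the collagen rule, also outside the comparisons, had 2193 CPM of the 10 genes (2023 to 2373). The deeper E15.5 cells had 1938 CPM (1906 to 1971), so the sum was slightly higher in the shallow barcodes. Several single genes differed far more than this sum. Their Pi16 fibroblast markers summed to 3058 CPM (2857 to 3270) against 32.8 in deeper E15.5 cells and 1232 in P0 cells of 5000 or more UMIs. Dlk1, a gene of fat cell precursors, had 89.0 against 1539 CPM, and Dcn, a matrix proteoglycan, 9975 against 801 CPM. At P0 the 79 barcodes of the same depth had Pi16 at 197 CPM against 407 in deeper cells, a smaller difference in the other direction.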

How the results depend on the processing

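Of 164 values of the main counts under alternative settings, 147 stayed within 1.5 times the reported count. Of the other values 1166 stayed within their limit, 69 moved past it and 1 changed its side of 1. That limit was counting error for single genes and pairs, 2 percentage points for all-gene shares and 1.5 times for numbers of pairs compared. The totals include a setting with genes matched by symbol, which repeated the reported run and so could not differ. The number of genes higher at P0 than at E13.5 was 2 in place of 1 with 30 or more collagen UMIs, with the median ratio over genes set to 1, and without the clusters led by genes of other tissues, an alternative added after the data were seen. The number higher at E15.5 than at E13.5 was 2 in place of 1 under the last 2 of these. With a minimum of 3000 UMIs a cell the E15.5 pairs at 1.25 or more were 1 and those at 0.8 or less 1, in place of 2 and 0, and Ebf2 with Twist2 at P0 stood at 1.32 in place of 0.499. The low pairs at E13.5 were 3 in place of 6 with 30 or more collagen UMIs, and those at E15.5 were 2 without cycling cells. In cells not thinned the high pairs were 2 at E13.5 and 1 at E15.5, and the low pairs 1 at E15.5 and 1 at P0 in place of 4. Over the median of other draws the high pairs at E15.5 were 1. The range over 19 other draws was 4 to 9 high and 5 to 12 low pairs at E13.5, 0 to 3 and 0 to 2 at E15.5, and 2 to 9 and 1 to 5 at P0. No gene was 2-fold higher in the E15.5 sub-epithelial mesenchyme-like cluster at resolution 0.4, in place of 1, and 1 was lower in the P0 Pi16 fibroblast-like cluster under log-normalization or with the 10 genes kept for clustering, in place of 0. The cause of these changes was not tested. Leaving out a replicate was not possible with 1 library per stage, and 31 cells limit every E14.5 value.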

Other observations

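Over the 4 stages the summed level of the 10 genes was 1821 CPM in E13.5, 2476 in E14.5, 1938 in E15.5 and 1175 in P0 mesenchyme, so that the sum varied less than most of the single genes. No cell at an embryonic stage lacked all 10 genes before thinning, and 3 of 265 P0 cells did. The P0 cells were also shallower, with a median of 8778 UMIs against 16573 to 24324 at the embryonic stages.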
